A study of Homo sapiens with 6 samples.

Results

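The genes of DNA replication and of deoxynucleotide synthesis were followed in MDA-MB-231 cells, a human triple-negative breast cancer line, after exposure to an extract of Salvia chinensis Benth (SCH). The set holds 49 genes of the 58735 in the deposited tables, matched by gene symbol, and all 49 passed the filter on low counts that left 14736 genes to test. It covers the factors that license origins, the MCM2-7 helicase and its activators, MCM8, the replicative polymerases and primase, the sliding clamp and its loader, the single-strand binding protein RPA, the enzymes that finish Okazaki fragments and those that supply deoxynucleotides. RNA was sequenced from 3 samples given vehicle and 3 given SCH at 100 mg/l, all harvested after 24 h and described by the submitters as biological repeats. Total counts on genes ran from 16836369 to 20291379 per sample. The series covers 1 cell line at 1 dose and 1 time, and SCH is an extract of a whole plant, so no single compound can be tied to a value.

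As a check on the label, the 6 mesenchymal markers looked up were abundant after vehicle, from CD44 at 96.6 FPKM (fragments scaled to gene length and to the sample's total) upward, with VIM at 264 FPKM and AXL at 293 FPKM, while the hormone receptor genes were at or near 0 (ESR1 0.0152 and PGR listed at 0). Of the 8 luminal markers taken as low in this line, KRT8 was not low, at 128 FPKM, ERBB2, EPCAM and GATA3 lay between 3.85 and 6.67 FPKM, and FOXA1 was at 0.995 FPKM. With SCH, 5 of the 6 mesenchymal markers were lowered at an adjusted p under 0.05 (83.3%, against 29.4% of all tested genes). CAV1 fell most, with a log2 fold change of -1.17. Of the 5 luminal markers tested, 2 were raised (40.0%, against 29.3% of all tested genes), FOXA1 (1.16) and ERBB2 (0.29). The other 3 were lowered (60.0%, against 29.4%), GATA3 (-0.79), EPCAM (-0.52) and KRT8 (-0.23). The 8 markers of immune, endothelial and other lineages summed to 4.25 ± 0.368 CPM (counts scaled by library size and TMM factors) after vehicle and 2.24 ± 0.397 after SCH (SD, n = 3). PTPRC, the most abundant of them after vehicle, went from a mean of 1.99 CPM to 0.290 CPM after SCH. PECAM1 had means of 1.095 CPM after vehicle and 1.207 CPM after SCH, and CD3E was listed at 0 after vehicle. The part of all these markers in the results was not tested.

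DNA is copied once per cell cycle. In G1 the origin recognition complex, CDC6 and CDT1 load the MCM2-7 ring onto origins, and the ring becomes an active helicase when CDC45 and the GINS complex join it under the control of the DBF4-CDC7 kinase. Polymerase alpha and its primase then lay down the primers, and polymerases delta and epsilon extend the strands on a PCNA clamp loaded by RFC. Ribonucleotide reductase, thymidylate synthase, thymidine kinase and dUTPase set the supply of deoxynucleotides. Transcription of many of these genes rises at the G1/S boundary under E2F transcription factors, which makes them common markers of proliferating tumour cells.

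Over all tested genes, SCH changed 58.7% at an adjusted p under 0.05 (edgeR's quasi-likelihood test with Benjamini-Hochberg adjustment), 29.3% raised and 29.4% lowered. Of the 49 members 25 changed (51.0%), 5 of them raised (10.2%) and 20 lowered (40.8%). The share that changed was thus near that of all tested genes, and more of the called members were lowered than raised. The median log2 fold change, SCH against vehicle, was -0.09 over the members and -0.0034 over all tested genes, and the median absolute value was 0.16 over the members against 0.31. No member reached 1 in either direction on the log2 scale, 8 of the lowered ones were at or beyond -0.5, and 8 of the 25 changed by less than 0.25. In 28 members (57.1%, against 62.4% of all tested genes) the SCH samples were all on the same side of the vehicle samples, below in 22 and above in 6. For each of these 28 the exact two-sided permutation test gave p = 0.1, the smallest that 3 samples against 3 allow. Without SCH replicate 1, 8 members were raised and 19 lowered, beside 4131 raised and 4034 lowered of the 15097 genes tested in that fit. The summed level of the members was 6011, 6078 and 5889 CPM after vehicle and 5190.0, 5235 and 5341 CPM after SCH.

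When libraries were scaled by their totals only, the median of all tested genes moved by 0.103 on the log2 scale, 62.6% of the changed genes were raised in place of 49.9%, and 12 members were raised and 15 lowered, with a median log2 fold change over the members of 0.0115. That median was -0.124 with upper quartile normalization and -0.0667 without SCH replicate 1. These are sums over whole cultures, in which fewer cells in S phase and less of a transcript per cell cannot be told apart.

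**Figure D1:**
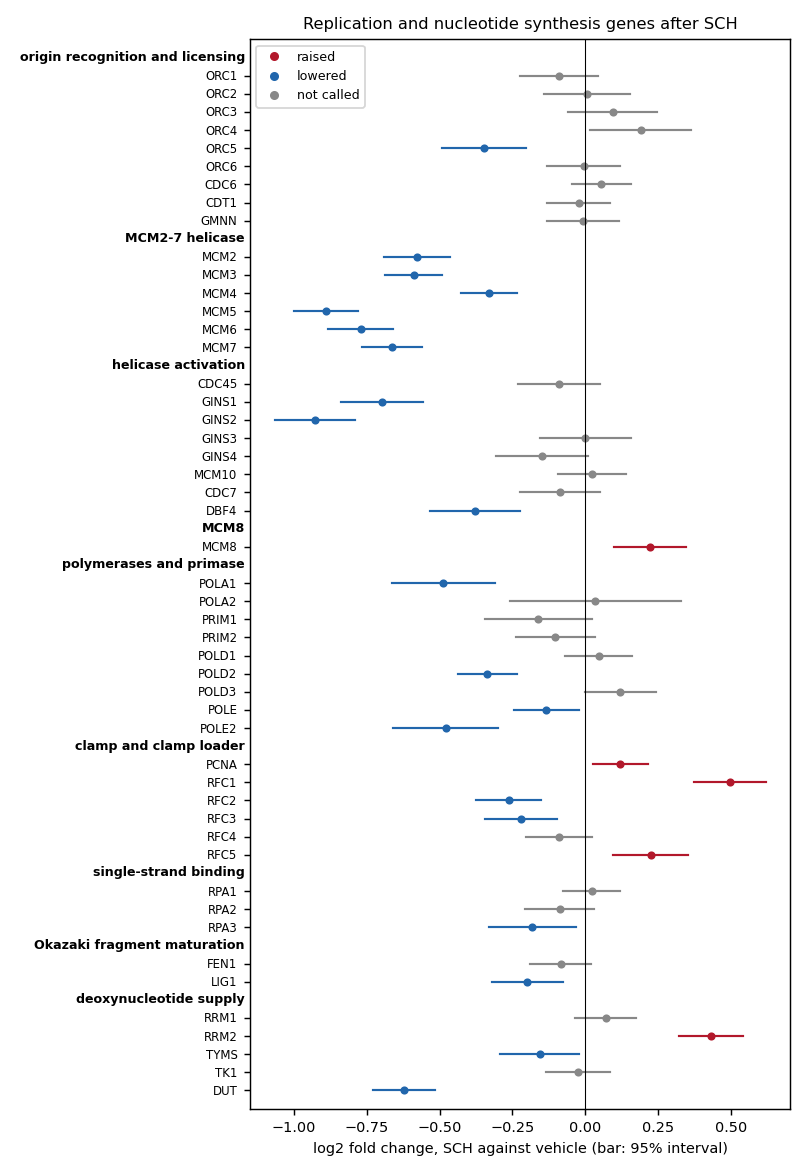
Log2 fold change of each of the 49 members, SCH against vehicle (horizontal axis), grouped by role, with bars for the unadjusted 95% interval and colours for the call at an adjusted p under 0.05 (edgeR). All 6 MCM2-7 genes lie left of 0, with GINS2 (-0.93) and MCM5 (-0.89) farthest, and RFC1 (0.50) and RRM2 (0.43) lie farthest right.

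Promoter windows were looked up in RefSeq's table on GRCh38.p14, taking for each gene the most upstream start, from 250 bases before it to 50 after it. Of the 49 members, 43 had a window. Letters of E2F sites (TTTGGCGC, TTTCGCGC, TTTCCCGC or TTTGCCGC, on either strand) stood in 19 of the 43 (44.2%), against 3.34% of the windows of 27305 genes. They were in 12 of the 17 lowered members with a window, 2 of the 5 raised ones and 5 of the 21 that did not pass the test. MCM2, MCM3, MCM6 and MCM7 each held them. The CCAAT letters were in 22 windows (51.2%, against 35.7% of all). They were in all 5 of the raised members, 8 of the 17 lowered ones and 9 of the 21 that did not pass. The letters TTTGAA or TTCGAA of cell cycle homology regions were in 3 (6.98%, against 16.7%). MCM6 carried the E2F letters at 2 places, starting 152 and 90 bases before the start, and at each place TTTGGCGC shares 4 bases with TTTCGCGC read on the other strand. No test was made of these shares, and a match of letters is a description and not a bound site. The stretches below are shown because they belong to the largest falls and rises that had a window with at least 200 upstream bases outside annotated exons. They run 5′ to 3′ on the strand of the gene, begin 250 bases before the start and stop at the start or, where it comes earlier, at the next annotated exon (GENCODE release 29). Those of GINS2 and RFC5 lie in an intron of a longer annotated transcript of the same gene, which starts further upstream. Capitals mark the E2F, CCAAT and cell cycle homology letters.
GINS2, chr16:85689000-85689204, minus strand: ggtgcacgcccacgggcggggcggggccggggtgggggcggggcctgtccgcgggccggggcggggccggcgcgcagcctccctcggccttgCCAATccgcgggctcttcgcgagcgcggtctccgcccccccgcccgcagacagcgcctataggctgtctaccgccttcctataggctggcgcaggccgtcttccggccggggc
MCM6, chr2:135876444-135876693, minus strand: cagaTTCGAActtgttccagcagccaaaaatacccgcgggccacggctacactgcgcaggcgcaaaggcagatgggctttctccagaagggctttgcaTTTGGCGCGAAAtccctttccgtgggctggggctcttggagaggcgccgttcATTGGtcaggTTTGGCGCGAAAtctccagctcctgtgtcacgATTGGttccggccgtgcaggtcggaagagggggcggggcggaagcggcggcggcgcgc
RFC1, chr4:39366376-39366612, minus strand: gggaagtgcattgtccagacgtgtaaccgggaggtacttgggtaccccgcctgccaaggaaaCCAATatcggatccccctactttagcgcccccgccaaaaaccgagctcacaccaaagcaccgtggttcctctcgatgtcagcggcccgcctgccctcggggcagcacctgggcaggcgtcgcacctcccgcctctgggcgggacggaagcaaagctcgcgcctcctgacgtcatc
RFC5, chr12:118016453-118016700, plus strand: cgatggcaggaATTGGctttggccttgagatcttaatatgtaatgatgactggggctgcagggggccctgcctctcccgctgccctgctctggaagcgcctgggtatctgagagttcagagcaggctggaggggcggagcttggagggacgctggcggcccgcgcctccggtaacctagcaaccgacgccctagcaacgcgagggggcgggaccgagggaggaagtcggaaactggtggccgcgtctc

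In GINS2 the E2F letters (TTTCCCGC, on the other strand, starting 31 bases before the start) lay beyond the printed stretch, and in RFC1 and RFC5 none stood in the window. MCM5 had no window in the table, and the stretch before RRM2 is not printed because it meets an annotated exon after 10 bases.

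Per length, the members differed in level widely. After vehicle, PCNA was highest at 175 ± 2.43 FPKM (SD, n = 3), followed by TK1 at 148 ± 11.7 FPKM, the median member stood at 19.1 FPKM, and POLA2, a subunit of polymerase alpha, was lowest at 1.12 ± 0.214 FPKM. In all, 40 of the 49 were at 10 FPKM or more. The coefficient of variation of CPM among the vehicle samples ran from 0.878% in CDC6 to 19.0% in POLA2, with a median of 4.13%, and its median among the SCH samples was 4.39%.

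Of the 9 genes that license origins 1 was lowered (11.1%, against 29.4% of all tested genes) and none raised, and the log2 fold changes of the other 8 lay between -0.09 and 0.19. CDT1, which brings the MCM ring to the origin, was the most abundant of them per length (34.9 ± 1.40 FPKM after vehicle) and had 126, 119.5 and 116 CPM after vehicle and 122, 116 and 118 CPM after SCH. CDC6, the ATPase that works with it, had 173, 170.5 and 171 CPM after vehicle and 172, 180.1 and 184 CPM after SCH. In both genes the groups overlapped, with log2 fold changes of -0.02 (95% interval -0.13 to 0.09) and 0.06 (-0.05 to 0.16). With library size only, CDC6 passed the threshold at 0.16. ORC5 (ENSG00000164815, chromosome 7 from 104126341 to 104208047 on GRCh38), an ATPase subunit of the origin recognition complex, was the one that fell, with 40.1, 36.8 and 39.4 CPM after vehicle and 29.1, 32.2 and 30.1 CPM after SCH. Its SCH samples all lay below its vehicle samples, and the log2 fold change was -0.35 (SE 0.070, adjusted p = 0.000177, edgeR), where SE is the standard error of the log2 fold change.

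The other subunits of the origin recognition complex had log2 fold changes of -0.09 (ORC1), 0.01 (ORC2), 0.09 (ORC3), 0.19 (ORC4) and -0.01 (ORC6), and GMNN, the geminin gene, whose protein blocks CDT1, stood at -0.01. The samples of ORC1 did not overlap, and the value of ORC4, with an adjusted p of 0.0576 (edgeR), passed the threshold in 5 of the 15 alternatives run for each member, among them those without vehicle replicate 3 (0.31) and without SCH replicate 1 (0.26). Summed over the 9 genes, the level was 622 ± 9.33 CPM after vehicle and 623 ± 11.6 CPM after SCH (SD, n = 3).

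The MCM2-7 genes, which encode the 6 different subunits of the replicative helicase, were all lowered by SCH, in a background of 29.4%. Their median log2 fold change was -0.63, and each of the 6 was also lowered under all 15 alternatives. MCM5 (ENSG00000100297, chromosome 22 from 35400063 to 35425430) fell most, from 176, 170.3 and 159.5 CPM after vehicle to 92.5, 87.8 and 92.3 CPM after SCH, a log2 fold change of -0.89 (SE 0.053, adjusted p = 1.54e-12, edgeR). The lowest vehicle sample was far above the highest SCH sample, and the mean fell by 46.1%. MCM7 (ENSG00000166508, chromosome 7 from 100092728 to 100101940), the most abundant of the ring per length (135 ± 9.09 FPKM after vehicle and 86.0 ± 0.902 after SCH), had 633, 643 and 568 CPM after vehicle and 392, 386 and 388 CPM after SCH. Its log2 fold change was -0.66 (SE 0.050, adjusted p = 8.57e-11, edgeR). The spread of its vehicle samples, of which the third was lowest, was small beside the distance between the groups.

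MCM2 (ENSG00000073111, chromosome 3 from 127598223 to 127622436) went from 159, 165 and 145 CPM after vehicle to 106, 103 and 105 CPM after SCH, with a log2 fold change of -0.58 (SE 0.055, adjusted p = 3.71e-09, edgeR). Of its exonic bases, 23.6% also lie in exons of another annotated gene. MCM6 fell by 41.4% (log2 fold change -0.77, SE 0.054, adjusted p = 2.16e-11, edgeR), MCM3 by 33.5% (log2 fold change -0.59, SE 0.048, adjusted p = 2.85e-10, edgeR) and MCM4 by 20.4% (log2 fold change -0.33, SE 0.047, adjusted p = 2.09e-06, edgeR), so that MCM4 had the smallest fall of the ring. Summed CPM of the 6 genes was 1794, 1823 and 1708 after vehicle and 1176, 1144 and 1175 after SCH, a ratio of means of 0.656. All SCH samples lay below all vehicle samples in this sum.

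Per length the levels of the ring after vehicle ran, in FPKM, from MCM7 and MCM3 (109 ± 3.47) over MCM4 (39.3 ± 0.940), MCM6 (32.7 ± 1.19) and MCM2 (30.8 ± 2.09) to MCM5 (22.2 ± 1.10), where MCM6 and MCM2 did not differ beyond their spread. After SCH the order was the same except that MCM2 (20.7 ± 0.319 FPKM) stood above MCM6 (19.2 ± 0.654 FPKM). The ratio of MCM7 to MCM5 in FPKM was 6.03, 6.32 and 5.96 after vehicle and 7.08, 7.35 and 7.02 after SCH, with no overlap, so MCM5 lost a larger part of its level than MCM7.

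**Figure D2:**
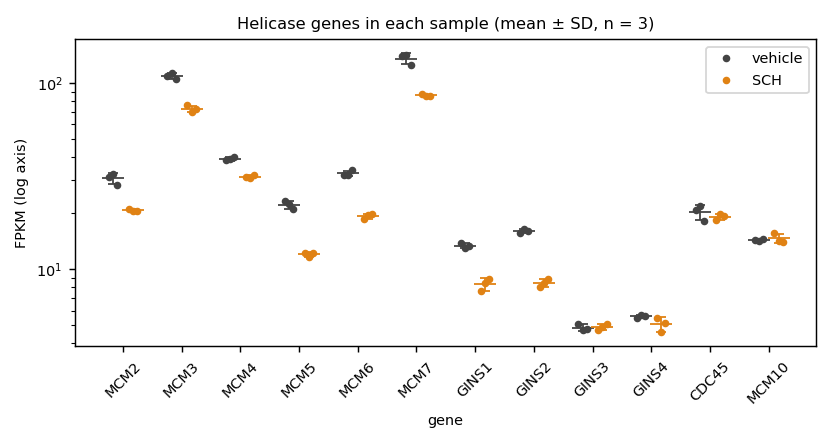
FPKM on a log axis (vertical) of the MCM2-7, GINS, CDC45 and MCM10 genes in each sample, with dots for the 3 vehicle and 3 SCH samples of each gene and lines for the mean ± SD. The SCH dots of MCM2 to MCM7, GINS1 and GINS2 lie below the vehicle dots, while those of GINS3, GINS4, CDC45 and MCM10 overlap them.

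Among the genes that turn the loaded ring into a moving helicase, 3 of 8 were lowered (37.5%, near the 29.4% of all tested genes) and none raised. GINS2 (ENSG00000131153, chromosome 16 from 85676198 to 85690073), which encodes the PSF2 subunit of the GINS complex, had the largest fall of all 49 members, from 52.8, 55.6 and 54.2 CPM after vehicle to 27.0, 28.4 and 29.9 CPM after SCH. The mean fell by 47.4%, a log2 fold change of -0.93 (SE 0.067, adjusted p = 3.72e-11, edgeR), and the groups stood far apart. GINS1, the PSF1 subunit, fell by 38.4% (log2 fold change -0.70, SE 0.068, adjusted p = 6.5e-09, edgeR). The other subunits of the same complex did not pass the test, with log2 fold changes of 0.00 (95% interval -0.16 to 0.16) in GINS3 and -0.15 (-0.31 to 0.01) in GINS4 and overlapping groups in both. GINS4 passed at -0.20 without SCH replicate 1 and at -0.18 with upper quartile normalization. In FPKM, the ratio of GINS3 to GINS2 was 0.326, 0.286 and 0.298 after vehicle and 0.585, 0.577 and 0.571 after SCH.

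CDC45, the helicase cofactor and the most abundant gene of this group per length, had 61.6, 64.4 and 53.4 CPM after vehicle and 53.6, 58.2 and 56.7 CPM after SCH. The groups overlapped, with a log2 fold change of -0.09 (95% interval -0.23 to 0.05), and without vehicle replicate 3 the value passed the threshold at -0.16. DBF4, the regulatory subunit of the kinase that fires origins, fell by 23.1% (log2 fold change -0.38, SE 0.075, adjusted p = 0.00014, edgeR), while its catalytic partner CDC7 had a log2 fold change of -0.09 and MCM10, a scaffold at the fork, one of 0.02, both with overlapping groups. MCM10 shares the name but not the ring with MCM5, and the ratio of their FPKM went from 0.649 ± 0.0415 after vehicle to 1.22 ± 0.0607 after SCH (SD, n = 3). MCM8, the helicase of a separate complex that acts in homologous recombination, moved the other way from MCM2-7, with 76.0, 73.0 and 83.6 CPM after vehicle and 94.5, 88.2 and 88.4 CPM after SCH. All its SCH samples were above its vehicle samples, at a log2 fold change of 0.22 (SE 0.060, adjusted p = 0.00276, edgeR).

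**Figure D3:**
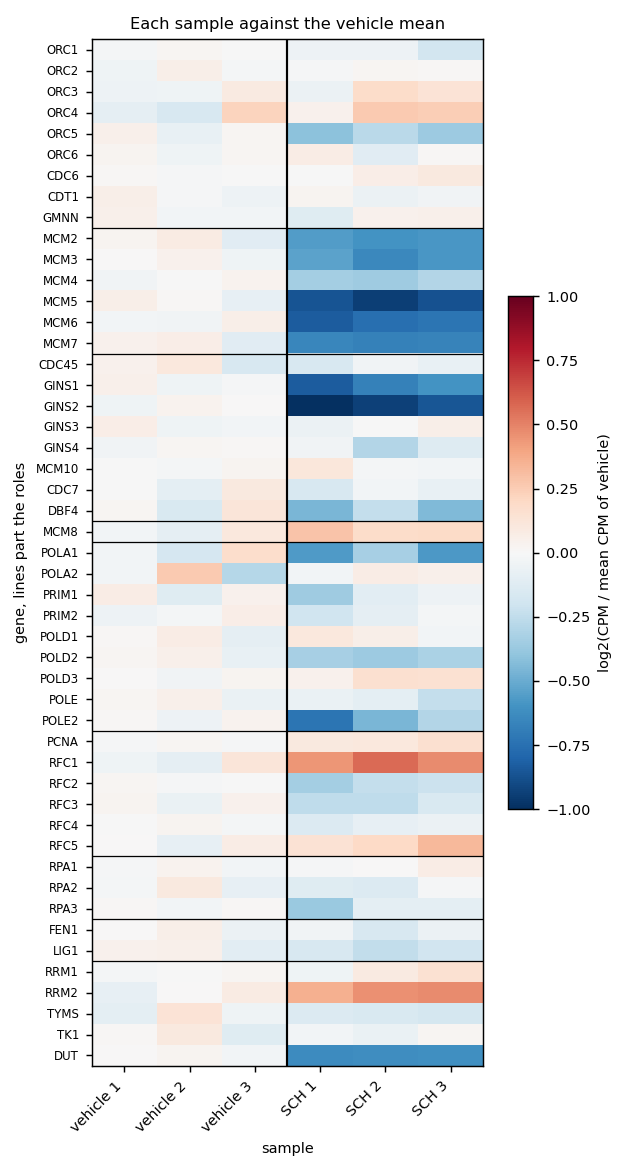
Heat map of log2 of CPM over the vehicle mean for each member (rows, by role) in each of the 6 samples (columns), with blue for lower and red for higher. The blue block of MCM2 to MCM7 and the rows of GINS1, GINS2 and DUT are blue in all 3 SCH samples, and RFC1 and RRM2 are red in all 3.

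Of the 9 genes of the polymerases and primase, 4 were lowered (44.4%, against 29.4% of all tested genes) and none raised. POLA1 (ENSG00000101868, chromosome X from 24693919 to 24996986), the catalytic subunit of polymerase alpha, had 41.1, 37.4 and 47.3 CPM after vehicle and 28.3, 33.3 and 28.1 CPM after SCH, a log2 fold change of -0.49 (SE 0.085, adjusted p = 3.16e-05, edgeR). Its lowest vehicle sample was above its highest SCH sample by less than the range within either group. POLA2, its partner, was at few counts (a log2 fold change of 0.03, 95% interval -0.26 to 0.33, and 35.1% of exonic bases shared with another gene), and PRIM1 (-0.16) and PRIM2 (-0.10), the primase subunits, did not pass the test.

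POLD2, an accessory subunit of the lagging-strand polymerase delta and the highest of these genes per length (66.5 ± 3.005 FPKM after vehicle), had 258, 263 and 242 CPM after vehicle and 202, 198 and 204 CPM after SCH. With the groups apart, its log2 fold change was -0.34 (SE 0.049, adjusted p = 2.72e-06, edgeR). The catalytic subunit POLD1 stood at 0.05 with overlapping groups, and POLD3 at 0.12 with every SCH sample above every vehicle sample and an adjusted p of 0.0809 (edgeR), which passed the threshold without SCH replicate 1 (0.16). With library size only, POLD1 (0.15) and POLD3 (0.22) both passed. In polymerase epsilon, which copies the leading strand, POLE2 fell by 28.3% (log2 fold change -0.48, SE 0.087, adjusted p = 5.16e-05, edgeR) and the catalytic POLE by 8.85% (log2 fold change -0.13, SE 0.053, adjusted p = 0.0359, edgeR). The call of POLE was lost in 9 of the 15 alternatives, among them DESeq2, library size only (-0.03) and those without vehicle replicate 1 (-0.12) or 2 (-0.11) and without SCH replicate 2 (-0.14) or 3 (-0.07).

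Of the 6 genes of the clamp and its loader 3 were raised (29.3% of all tested genes were) and 2 lowered (33.3%, against 29.4%). PCNA (ENSG00000132646, chromosome 20 from 5114953 to 5126626), the clamp itself and the highest member per length, had 264, 270.0 and 264 CPM after vehicle and 284, 286 and 298 CPM after SCH. The groups did not overlap, but the rise was only 8.72%, a log2 fold change of 0.12 (SE 0.046, adjusted p = 0.0287, edgeR), and its call was lost without vehicle replicate 1 (log2 fold change 0.12), without SCH replicate 3 (0.11) and with upper quartile normalization (0.09). RFC1 (ENSG00000035928, chromosome 4 from 39287456 to 39366375), the large subunit of the clamp loader, had 82.1, 79.9 and 92.5 CPM after vehicle and 115, 126 and 118 CPM after SCH, the largest rise of the 49 at 0.50 (SE 0.060, adjusted p = 1.89e-07, edgeR). RFC2 (ENSG00000049541, chromosome 7 from 74231499 to 74254458), one of its small subunits, had 106, 104 and 104 CPM after vehicle and 82.6, 88.9 and 90.3 CPM after SCH, the largest fall of this group at -0.26 (SE 0.054, adjusted p = 0.00021, edgeR). Samples did not overlap in either gene, and they moved in opposite directions, so that the ratio of RFC2 to RFC1 in FPKM was 3.93, 3.94 and 3.43 after vehicle and 2.18, 2.15 and 2.33 after SCH. Of the other small subunits, RFC5 rose (0.22, 10.6% of exonic bases shared with other genes, WSB2 the most). RFC3 fell (-0.22, and -0.12 and no longer past the threshold with library size only) and RFC4 stood at -0.09 without passing the test.

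RPA coats single-stranded DNA as a trimer. Its middle subunit RPA2, the highest per length, had 108, 117 and 104 CPM after vehicle and 101, 99.7 and 109 CPM after SCH. RPA3, the smallest, had 47.1, 46.0 and 47.2 CPM after vehicle and 36.1, 43.6 and 43.8 CPM after SCH. RPA2 overlapped between the groups (log2 fold change -0.09), whereas RPA3 did not and fell by 11.8% (log2 fold change -0.18, SE 0.072, adjusted p = 0.0346, edgeR), a call lost in 9 of the 15 alternatives, among them those without any 1 of the vehicle replicates (-0.19 to -0.17), without SCH replicate 1 (-0.09) and with library size only (-0.08). RPA1, the large subunit, stood at 0.02 with overlapping groups, and passed the threshold at 0.13 with library size only. Of the enzymes that finish Okazaki fragments, the flap nuclease FEN1 had 243, 252 and 232 CPM after vehicle and 236, 217 and 232 CPM after SCH and overlapped (log2 fold change -0.08). FEN1 passed the threshold at -0.11 without vehicle replicate 3 and at -0.12 with upper quartile normalization. The ligase LIG1 had 80.8, 81.2 and 72.9 CPM after vehicle and 70.2, 66.0 and 68.6 CPM after SCH. Its groups were apart, and it fell by 12.9% (log2 fold change -0.20, SE 0.059, adjusted p = 0.00594, edgeR), a call lost without SCH replicate 2 (-0.17) and with library size only (-0.0956).

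Deoxynucleotide enzymes moved in both directions. RRM2 (ENSG00000171848, chromosome 2 from 10120698 to 10131419), the small subunit of ribonucleotide reductase whose level follows S phase, rose from 129, 137 and 144 CPM after vehicle to 175, 188 and 189 CPM after SCH, by 34.8%, a log2 fold change of 0.43 (SE 0.053, adjusted p = 2.89e-07, edgeR). RRM1, the large subunit, had 329, 332 and 338 CPM after vehicle and 324, 354 and 371 CPM after SCH. The groups were apart in RRM2, of which 20.2% of the exonic bases lie in exons of other annotated genes. They overlapped in RRM1 (log2 fold change 0.07, 95% interval -0.04 to 0.17, and past the threshold at 0.13 without SCH replicate 1). RRM1 stayed the higher of the pair per length, at 3.12 ± 0.131 times RRM2 in FPKM after vehicle and 2.42 ± 0.0728 times after SCH (SD, n = 3).

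DUT (ENSG00000128951, chromosome 15 from 48331011 to 48343373), the dUTPase that keeps uracil out of DNA, fell most in this group, from 119, 121 and 117 CPM after vehicle to 76.7, 77.1 and 77.5 CPM after SCH, by 35.0% (log2 fold change -0.62, SE 0.052, adjusted p = 4.57e-10, edgeR). The groups were far apart beside their spread, and 14.5% of its exonic bases are shared with another gene. TK1, the thymidine kinase of the salvage route and the highest of the group per length, had 289, 306 and 262 CPM after vehicle and 280.0, 273 and 289.6 CPM after SCH. TYMS, thymidylate synthase, had 54.6, 64.3 and 56.8 CPM after vehicle and 53.2, 52.7 and 51.7 CPM after SCH. TK1 overlapped (log2 fold change -0.02, 95% interval -0.14 to 0.09), and TYMS did not, but its fall of 10.3% (log2 fold change -0.16, SE 0.066, adjusted p = 0.0443, edgeR) passed the threshold in only 5 of the 15 alternatives. It did not pass with library size only (-0.05), without vehicle replicate 2 (-0.08) or without any 1 of the SCH replicates (-0.16 to -0.13). Of the exonic bases of TYMS, 46.6% lie in exons of other annotated genes, of which ENOSF1 shares the most.

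A further 83 genes of the same pathways were read in the same fit, and 82 of them were tested (TEN1 was not). They were listed from general knowledge, but with earlier results of these data known. Among 33 tested origin and fork factors 15 were raised (45.5%, against 29.3% of all tested genes) and 9 lowered (27.3%, against 29.4%), and the median log2 fold change was 0.11. The largest rises were those of POLD4, the small subunit of polymerase delta, LRWD1, which binds the origin recognition complex, and ESCO2, the cohesin acetyltransferase of S phase. POLD4 had 5.43, 8.41 and 7.76 CPM after vehicle and 20.2, 16.4 and 16.0 CPM after SCH (log2 fold change 1.29, SE 0.13, adjusted p = 1.5e-08, edgeR), LRWD1 reached 0.55 and ESCO2 0.49. The largest falls were -0.79 in RNASEH1, which removes RNA from hybrids with DNA, -0.59 in DBF4B, the second activator of CDC7, and -0.50 in SSRP1, a subunit of the histone chaperone FACT. POLD4 thus rose while POLD2 of the same polymerase fell, though 21.3% of the exonic bases of POLD4 lie in exons of another gene.

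Of 13 genes that rebuild chromatin and its methylation behind the fork, 1 was raised (7.69%, against 29.3% of all tested genes) and 6 lowered (46.2%, against 29.4%), with a median of -0.08. ASF1B, a histone chaperone, rose by 0.31 on the log2 scale. The histone-binding RBBP4 had 120.1, 119.5 and 124 CPM after vehicle and 67.5, 71.8 and 74.8 CPM after SCH (log2 fold change -0.76, SE 0.055, adjusted p = 4.04e-11, edgeR), UHRF1, which guides maintenance methylation, had a log2 fold change of -0.62, and NASP, a histone chaperone, one of -0.17. The lowered genes of this list numbered 2 without vehicle replicate 1 (NASP at -0.11), 3 without SCH replicate 2 (NASP at -0.13) and 2 with library size only. The groups of the 4 named genes did not overlap, and 18.0% of the exonic bases of RBBP4 are shared.

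Of 36 other genes of nucleotide synthesis 26 were lowered (72.2%, against 29.4% of all tested genes) and 4 raised, with a median of -0.36. DHODH, the mitochondrial enzyme of pyrimidine synthesis, had 20.6, 21.3 and 19.4 CPM after vehicle and 7.17, 8.43 and 8.94 CPM after SCH, a log2 fold change of -1.32 (SE 0.10, adjusted p = 1.38e-10, edgeR). DCTPP1, which hydrolyses dCTP, stood at -1.11 (42.1% of exonic bases shared) and PFAS, an enzyme of purine synthesis, at -0.89. A grouping made after the values were seen, the 6 enzymes from PPAT to ATIC that build inosine monophosphate, was lowered in all 6, with log2 fold changes from -0.89 (PFAS) to -0.29 (GART).

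Against that direction, RRM2B (ENSG00000048392), the p53-induced small subunit of ribonucleotide reductase, had 17.7, 17.4 and 23.1 CPM after vehicle and 40.0, 42.9 and 39.1 CPM after SCH, a log2 fold change of 1.07 (SE 0.090, adjusted p = 5.18e-10, edgeR). SAMHD1, which degrades deoxynucleotides, and DCK, a salvage kinase, rose by 0.38 and 0.22, and GUK1, guanylate kinase, by 0.15. In RRM2B the lowest SCH sample was well above the highest vehicle sample, and RRM2 and RRM2B rose while RRM1 did not pass the test.

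**Figure D4:**
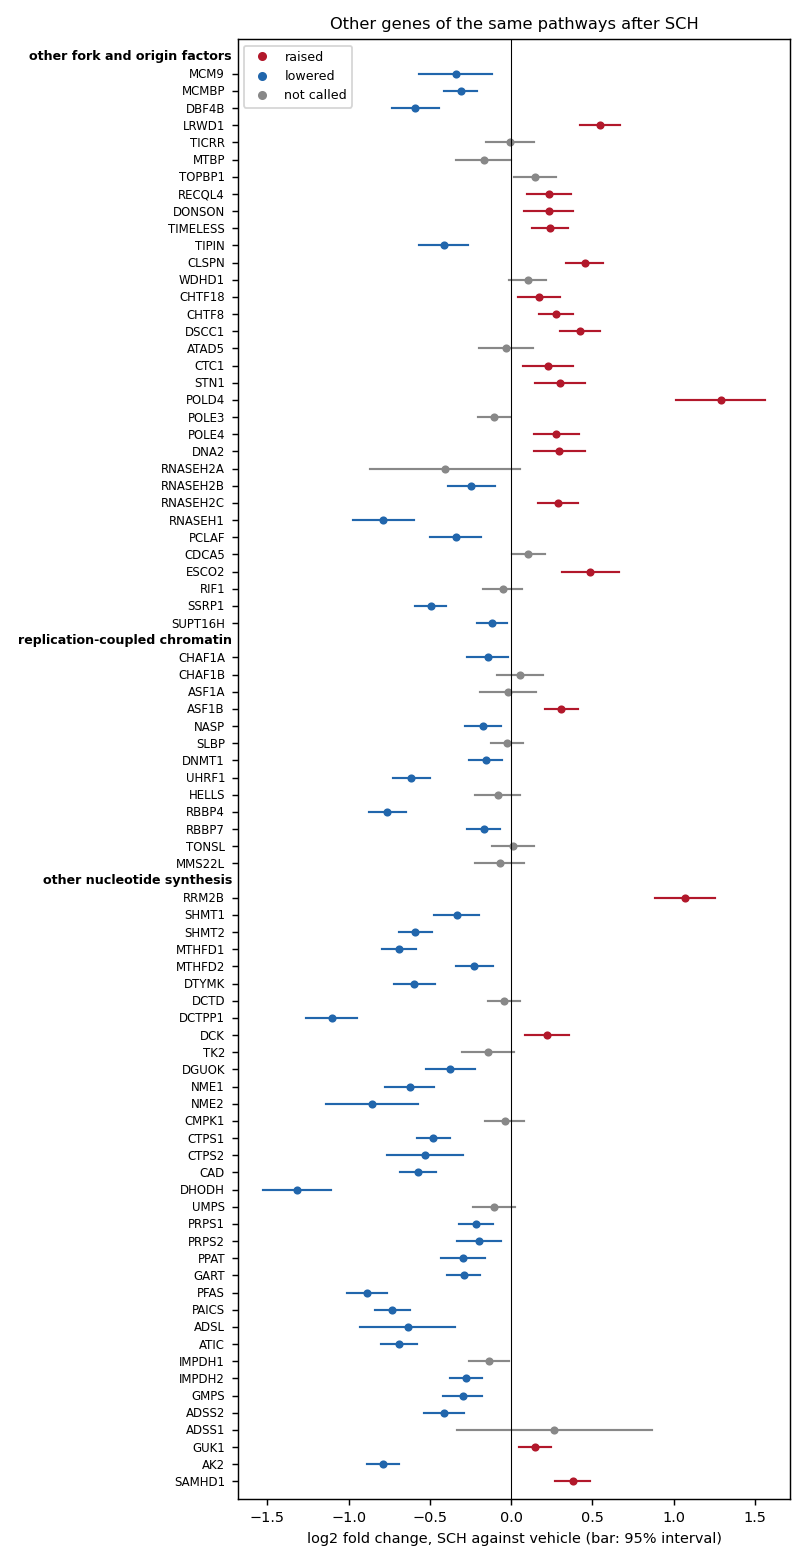
Log2 fold change, SCH against vehicle (horizontal axis), of the tested genes of the same pathways outside the 49 (1 of the 82 is not drawn), with bars for the unadjusted 95% interval and colours for the call at an adjusted p under 0.05 (edgeR). Most genes of nucleotide synthesis at the bottom are lowered (26 of the 36 tested), while the fork and origin factors at the top lie on both sides of 0 (15 raised, 9 lowered).

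For scale, 15 mitotic genes, also chosen with earlier results of these data known, were set beside the members. Of these 14 fell, and the median log2 fold change was -0.65, against 20 of 49 and -0.09 in the replication genes and 29.4% lowered over all tested genes. CCNB1, the cyclin of mitotic entry, had 358, 354 and 365 CPM after vehicle and 121, 124 and 122 CPM after SCH (log2 fold change -1.55, SE 0.048, adjusted p = 1.22e-17, edgeR), and PLK1, the mitotic kinase, had 162, 166 and 164 CPM after vehicle and 43.3, 45.6 and 40.4 CPM after SCH (log2 fold change -1.93, SE 0.057, adjusted p = 8.47e-18, edgeR, 12.5% of exonic bases shared). Both fell by more than any of the 49 members. CDK1, the kinase partner of CCNB1, was the mitotic gene that did not pass the test, at 0.08, and 1 gene of the list was raised without vehicle replicate 3 or with library size only. The difference between the lists was not tested.

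**Figure D5:**
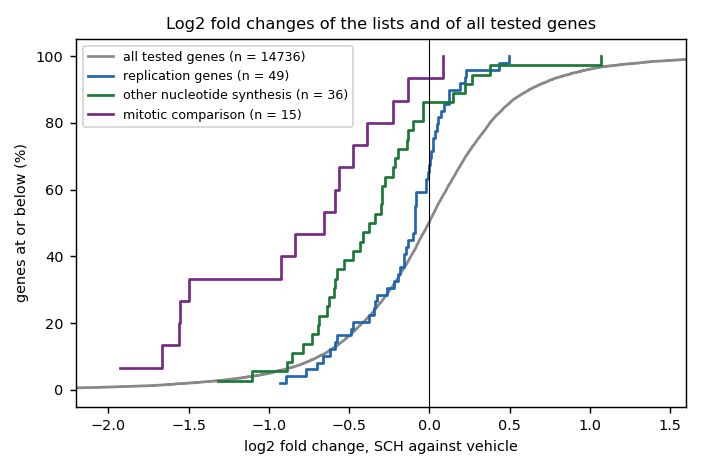
Cumulative share of genes (vertical axis, %) at or below each log2 fold change, SCH against vehicle (horizontal axis), for all 14736 tested genes, the 49 members, 36 other nucleotide synthesis genes and 15 mitotic genes. The step line of the members reaches 0 with 33 of 49 genes below it, against 7418 of 14736 over all tested genes, and ends at 0.50, while the lines of the nucleotide synthesis and mitotic genes are shifted left, with medians of -0.36 and -0.65.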

How the data were processed

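RNA from 6 MDA-MB-231 samples, 3 per group, was sequenced by Novogene from poly-T purified mRNA. Raw gene counts, not normalized, were deposited together with FPKM values of each sample, in which each count is divided by gene length and a sample scale. The submitters' processing notes name CASAVA 1.8, HISAT2 2.0.5, featureCounts 1.5.0-p3, DESeq2 1.20.0 and GRCh38, and the annotation and strand setting are not given in the sources used here. All 58735 gene identifiers are in GENCODE release 29, which gave the exon overlaps. Pseudogenes of the members held at most 0.473% of a member's counts. The sample labels give RPMI-1640 medium, and the paper's methods give DMEM.

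Counts were tested in R 4.3.3 with edgeR 4.0.16 (TMM normalization, filterByExpr, quasi-likelihood test of SCH against vehicle, no covariates, Benjamini-Hochberg adjustment over 14736 genes, threshold 0.05). CPM are scaled by the TMM factors. Single members were compared by an exact permutation test. Fold changes rest on 3 samples per group, whose common biological coefficient of variation was 5.17%, and p-values measure the spread between these samples. Libraries of a group were not copies: the chi-square per degree of freedom between their counts was 2.12 to 5.75. Depth allows a floor of 3 counts per sample, and every member was above it.

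The members and the gene lists were chosen with earlier results of these data known. Values in every sample are given, within each role, for the largest rise and fall past the threshold and the highest mean FPKM, and for PCNA, CDC6, CDT1, MCM2, RRM1, RRM2, TYMS and TK1. From each list of other genes the 3 largest rises and falls past the threshold are named, with RRM2B, and of the mitotic list CCNB1 and the largest fall. 1 gene of the nucleotide synthesis list is counted but not reported here. GUK1, CDK1, MCM9 and the inosine monophosphate enzymes were added after their values were seen. The promoters shown are those of the largest falls and rises past the threshold with a window, and the limit of 200 bases outside exons was added later. Alternatives were RLE, library size only and upper quartile scaling, DESeq2 1.42.0, no filter, a minimum of 10 counts per sample, limma 3.58.1 on log2(FPKM + 1) and log2(FPKM + 0.1), a replicate block, each replicate left out, an adjusted p under 0.01 and a log2 fold change of at least 1 as well. The fits were tested on simulated data, and Python 3.11.15 made the figures.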

Additional observations from a re-analysis of the deposited data

How the results depend on the processing

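Of the members, 15 of the 20 lowered and 4 of the 5 raised kept their call and direction under all 15 alternatives run for each gene. The exceptions were POLE, RPA3, TYMS, LIG1 and RFC3 among the lowered and PCNA among the raised, and 23 of the 24 members that did not pass changed side or direction under at least 1 alternative, PRIM1 being the exception. The changed genes numbered 7919 of 14736 with DESeq2 (3997 raised and 3922 lowered), with 5 members raised and 17 lowered. A log2 fold change of at least 1 as well left 1292 changed genes and 0 members raised or lowered. With library size only, 12 members were raised, among them ORC3 (0.1963), ORC4 (0.2922), CDC6 (0.1581), POLD1 (0.1495), POLD3 (0.2237), RPA1 (0.1261) and RRM1 (0.1724). The log2 fold changes of other members that did not pass turned positive in ORC1 (0.0115), ORC6 (0.0979), CDT1 (0.0808), GMNN (0.0941), CDC45 (0.0134), CDC7 (0.0164), PRIM2 (0.0006), RFC4 (0.0115), RPA2 (0.016), FEN1 (0.0185) and TK1 (0.079). With upper quartile normalization ORC2 (-0.0258), GINS3 (-0.032), MCM10 (-0.0093) and RPA1 (-0.0094) turned negative. Without the filter ORC6 was at 0.0127 and GMNN at 0.0085, with at least 10 counts in every sample GINS3 was at -0.0049, and on both FPKM scales ORC6 was at 0.0007. Leaving out 1 replicate at a time gave 4 to 8 raised members, with 8 without SCH replicate 1, and ranges that crossed 0 in ORC2 (-0.0117 to 0.0401), ORC6 (-0.0408 to 0.0533), CDT1 (-0.0462 to 0.0141), GMNN (-0.0275 to 0.0495), GINS3 (-0.0192 to 0.0406), MCM10 (-0.0182 to 0.0613), POLA2 (-0.0845 to 0.1848) and TK1 (-0.0812 to 0.0305). Leaving out 1 replicate also ended or gave calls of single genes, with the values given beside each gene. The cause was not tested.

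The replicate block gave 8705 changed genes of 14736 (4355 raised and 4350 lowered), with 6 members raised and 20 lowered. The labels number the samples of both groups alike, but same-numbered samples did not deviate together (correlations of 0.046, -0.022 and 0.022 across genes), so the numbers are not taken as pairs. POLA2 has few counts, 742 over the 6 samples, and its interval is the widest of the members. Whether the counting program used strand or dropped shared reads is not given in the sources used here, which limits the 9 members with at least 10% of exonic bases in another gene's exons.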
